A study of Mus musculus with 21 samples.

Results

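The genes described here are the Wnt signalling genes that act at or outside the cell surface, with a few direct targets, as measured in neurons made from mouse embryonic stem cells. They were chosen by symbol: every gene whose symbol begins with Wnt and a digit, Fzd, Sfrp, Dkk or Rspo, and also Wif1, Axin2, Lef1, Lgr5, Ror1, Ror2, Notum and Nkd1. These names gave 51 of the 18193 genes tested, of which 19 are ligands, 13 receptors, 11 secreted inhibitors and 4 R-spondins. Axin2, Lef1 and Nkd1 are transcriptional targets or intracellular feedback components, and Fzd10os is an RNA made from the strand opposite Fzd10.

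The 21 arrays fall into 7 groups of 3 biological replicates. NesE-Lmx1a cells, in which an enhancer of the nestin gene drives the transcription factor Lmx1a in neural progenitors, were differentiated with SHH and FGF8 and sampled as mesencephalic dopaminergic neurons on day 14 and on day 10. NesE-Nkx2.2 cells became serotonergic neurons by day 10 in SHH with either FGF8 or retinoic acid (RA), and NesE-Olig2 cells became somatic motoneurons by day 8 in SHH and RA. Wild-type cells were sampled on day 8 in RA and on day 10 in FGF8, and their labels differ on whether SHH was present: the titles name it and the source names do not. If it was absent, the transgene and SHH cannot be told apart in any comparison with the wild type. The labels describe the wild-type neurons as dorsal hindbrain (RA) and dorsal midbrain (FGF8) cells. Each engineered line is 1 line in the labels, and no label ties replicates of different groups to a shared culture.

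Wnt proteins are lipid-modified secreted ligands that bind Frizzled receptors. With the co-receptors Lrp5 and Lrp6 they stabilise beta-catenin, which activates targets such as Axin2 and Lef1 together with TCF/LEF factors, and with Ror1, Ror2 or planar polarity proteins they act without beta-catenin. Sfrp proteins and Wif1 bind the ligands, Dkk1 blocks Lrp5 and Lrp6, and R-spondins acting through Lgr4, Lgr5 and Lgr6 raise the amount of Frizzled on the cell surface. In the neural tube, Wnt ligands are made mainly at the dorsal midline and at the midbrain-hindbrain boundary, and Wnt1 and Wnt5a are known for their part in the making of midbrain dopaminergic neurons.

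Every value below is a log2 deviation from the probe set's own median over 27 arrays, because the deposited values were centred. A value therefore shows how an array stood against the others and not how much RNA was present, and the neuronal identity of a group could be read only as differences between groups. Means of 8 pan-neuronal genes lay between -1.08 and 0.80 over the 21 arrays, and those of 6 pluripotency genes between -0.06 and 0.29. A gene was called when its difference between group means was 1 log2 unit or more and its limma p-value, adjusted by the Benjamini-Hochberg method over 18193 genes, was under 0.05. Differences are given ± SE with 3 arrays per group, and the SE rests on a spread shared by all 7 groups. In bulk RNA, fewer cells of a type and less RNA per cell cannot be told apart. The arrays also fall into 9 with low and 12 with higher signal on the bioC spike-in controls, and all Lmx1a arrays of day 10 and replicates 1 and 2 of day-14 Lmx1a, Olig2 and FGF8 wild type belong to the low set. One array stands apart for these genes: replicate 2 of the FGF8 wild type lay 2 or more log2 units below both other replicates for 9 of the 51 genes (Fzd10, Fzd7, Lef1, Rspo1, Rspo2, Rspo3, Sfrp2, Wnt7b and Wnt8b), and for 420 of all genes (2.31%). Each comparison with that group is given with and without it.

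Of the 51 genes, 24 (47.1%) were called in at least 1 of the 9 comparisons between groups, as were 30.7% of all genes tested. By role these were 6 of 19 ligands, 8 of 13 receptors, 4 of 11 secreted inhibitors, 3 of 4 R-spondins, Lef1 and Nkd1 of the 3 targets, and Fzd10os. Most ligands were flat: 11 of 19 stayed within 1 log2 unit over all 21 arrays, as did 6 of 11 secreted inhibitors and none of the 13 receptors. Over all roles 18 of 51 genes (35.3%) were this flat, and 37.2% of all genes were.

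**Figure D1:**
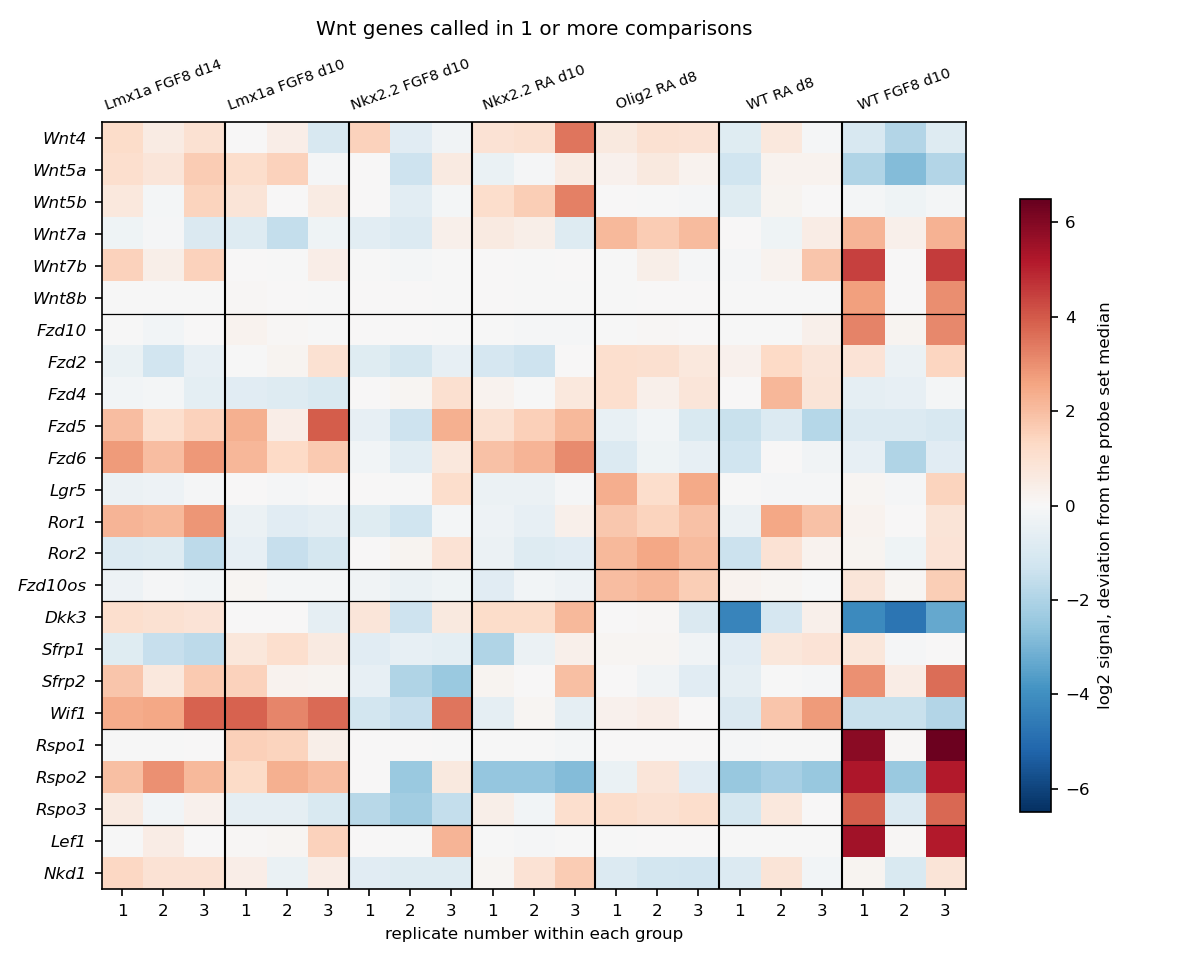
The 24 genes called in at least 1 comparison (rows, by role) on the 21 arrays (columns, 3 per group), coloured by log2 deviation from the probe set's median. Rspo1, Lef1, Wnt8b, Wnt7b and Fzd10 stand out on replicates 1 and 3 of the FGF8 wild type and not on its replicate 2, and Ror2, Lgr5 and Fzd10os have their highest group means in Olig2 neurons.

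The 27 genes called in no comparison are given by the range of their 7 group means. Among ligands, Wnt9a had the widest range, 2.19, followed by Wnt11 at 0.48, Wnt1 at 0.33 and Wnt6 at 0.29. Wnt3 (0.19), Wnt16 (0.15), Wnt3a (0.14), Wnt9b (0.08), Wnt2 (0.07), Wnt8a (0.07), Wnt10b (0.07), Wnt2b (0.06) and Wnt10a (0.05) were flatter still. Wnt1, the ligand of the midbrain-hindbrain boundary, and Wnt3a, a ligand of the dorsal midline, thus had nearly level group means. On single arrays, Wnt1 stood at 0.89 on replicate 1 of the FGF8 wild type and at 0.16 or below on every other array. The uncalled Frizzled receptors spread more widely: Fzd8 by 2.49, Fzd7 by 2.03, Fzd3 by 1.96, Fzd1 by 1.39 and Fzd9 by 0.64. Of the inhibitors, Dkk2 had a range of 1.03, Sfrp4 of 0.37, Dkkl1 of 0.25, Dkk1 of 0.19, Sfrp5 of 0.17, Dkk4 of 0.09 and Notum, an enzyme that removes the lipid from Wnt proteins, of 0.05. Rspo4 had a range of 0.21 and Axin2 one of 1.58. A flat centred value can belong to a transcript that is absent or to one that is even across the groups, and these values do not separate the cases.

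The first comparison asks how day-10 Lmx1a neurons differ from wild-type neurons of the same day and FGF8 treatment. The secreted inhibitors Wif1 and Dkk3, the receptors Fzd5 and Fzd6 and the ligand Wnt5a were higher in Lmx1a neurons, and the ligands Wnt7a and Wnt8b and the receptor Fzd10 were lower. These 8 genes are 15.7% of the 51, and 3.31% of all genes were called. The 5 that rose are set against 1.96% of all genes called higher, and the 3 that fell against 1.36% called lower. The median difference was -0.00 over the 51 genes and 0.03 over all genes, and the arrays of the 2 groups did not overlap for 15.9% of all genes.

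Wnt5a, the ligand best known for signalling without beta-catenin, had 1.12, 1.51 and -0.09 in Lmx1a neurons, against -1.94, -2.81 and -1.92 in the FGF8 wild type. All 3 Lmx1a arrays lay above all wild-type arrays. The difference was 3.07 ± 0.53 (adjusted p = 0.00355), or 8.38-fold. Wnt7a, a ligand with roles in synapse formation and brain vessels, had -0.84, -1.56 and -0.26 in Lmx1a neurons, against 2.23, 0.34 and 2.27 in the wild type. The groups did not overlap, and wild-type replicate 2 was the lowest of its group (difference -2.50 ± 0.52, adjusted p = 0.0112). Wnt8b, a ligand of the dorsal forebrain midline in the embryo, had 0.09, 0.02 and -0.01 in Lmx1a neurons, against 2.69, 0.04 and 3.02 in the wild type. Here the groups overlapped, since wild-type replicate 2 lay among the Lmx1a arrays (difference -1.89 ± 0.49, adjusted p = 0.0380).

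Among receptors, Fzd6, a Frizzled known from planar cell polarity in mouse skin and inner ear, had 2.14, 1.31 and 1.70 in Lmx1a neurons, against -0.52, -1.97 and -0.72 in the wild type. The groups were far apart, and the difference was 2.79 ± 0.47 (adjusted p = 0.00271). Fzd5, a Frizzled of the developing mouse eye, had 2.29, 0.42 and 3.95 in Lmx1a neurons, against -0.88, -0.88 and -1.07 in the wild type. The Lmx1a arrays spread widely but did not reach the wild-type ones (3.16 ± 0.83, adjusted p = 0.0412). Fzd10, a Frizzled of the dorsal neural tube, had 0.23, 0.09 and -0.01 in Lmx1a neurons, against 3.21, 0.16 and 3.12 in the wild type. Wild-type replicate 2 fell within the Lmx1a values (-2.06 ± 0.52, adjusted p = 0.0349).

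Wif1, a secreted protein that binds Wnt ligands, showed the widest difference of the 51 genes in this comparison. It had 3.83, 3.16 and 3.66 in Lmx1a neurons, against -1.46, -1.44 and -1.90 in the wild type. Both groups were tight and well apart, and the difference was 5.15 ± 1.05 (adjusted p = 0.0103), or 35.5-fold. Dkk3, a secreted Dickkopf protein whose effect on Wnt signalling depends on the cell, had 0.03, 0.00 and -0.57 in Lmx1a neurons, against -4.15, -4.74 and -3.30 in the wild type. Again no array of one group reached the other (3.88 ± 0.86, adjusted p = 0.0164), a 14.8-fold difference.

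Of the 4 R-spondins and 3 targets, limma called 0 in this comparison, with 4 at an unadjusted p under 0.05. Rspo1, Rspo3 and Lef1 differed by -2.99 ± 1.06, -2.96 ± 0.89 and -2.99 ± 1.00 (adjusted p = 0.139, 0.0752 and 0.115). Of 54 other pathway genes tested, 1 rose and 1 fell: Apcdd1, a membrane-bound Wnt inhibitor, by 3.50, and Draxin, a secreted axon guidance protein that also antagonises Wnt, by -1.82. All 5 floor plate genes measured (Foxa2, Shh, Corin, Ntn1 and Foxa1) rose as well, with a mean of 2.12 to 3.22 on Lmx1a arrays and -2.91 to -1.40 on wild-type arrays. Of 7 roof plate and choroid plexus genes, a list that holds Lmx1a itself, 2 rose, as did 1 of 5 astroglial genes, and 2 of 8 neural progenitor genes fell. The 8 mesenchymal genes had a median difference of -0.75 with 3 of 8 above 0 and 2 called higher, and their array means overlapped, at -1.23 to 0.74 in Lmx1a neurons and -1.63 to 0.20 in the wild type. The part of these lists in the Wnt gene differences was not tested. Wif1, Wnt5a and Fzd6 were called without any single array, with an adjusted p of at most 0.0405, 0.0165 and 0.014. The count of 8 became 5, 6 and 5 without Lmx1a replicates 1, 2 and 3, beside 2.93%, 2.94% and 3.08% of all genes. It became 3, 15 and 4 without wild-type replicates 1, 2 and 3, beside 1.97%, 4.17% and 2.40% of all genes. When only these 6 arrays were fitted, it was 2, beside 0.923% of all genes. Dkk3 missed the threshold without wild-type replicate 1 (adjusted p = 0.0596), Wnt7a without wild-type replicate 1 or 3 (0.0627 and 0.0564), Fzd5 without any array except Lmx1a replicate 2 (up to 0.121), and Fzd10 and Wnt8b without any array except wild-type replicate 2 (up to 0.162 and 0.171). Within the arrays of low bioC signal, 4 genes were called, Wif1, Dkk3, Wnt5a and Fzd6, beside 1.69% of all genes.

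The second comparison sets serotonergic neurons of the Nkx2.2 line, made with FGF8, against the same FGF8 wild-type arrays. Dkk3 and Wnt5a were higher, while the R-spondins Rspo1 and Rspo3, the inhibitor Sfrp2, the ligands Wnt7a, Wnt7b and Wnt8b, Fzd10 and Fzd10os were lower in Nkx2.2 neurons. These 10 genes are 19.6% of the 51, against 4.53% of all genes called. The 8 that fell stand beside 1.71% of all genes called lower, and the 2 that rose beside 2.83% called higher. The 51 genes had a median difference of -0.10 and all genes one of -0.01, and the arrays did not overlap for 21.2% of all genes. The wild-type arrays are shared with the comparison above, so the values of the 2 comparisons are not independent.

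Wnt5a had 0.00, -1.34 and 0.61 in Nkx2.2 neurons, against -1.94, -2.81 and -1.92 in the FGF8 wild type, with no overlap (1.98 ± 0.53, adjusted p = 0.0361). Wnt7a had -0.71, -0.91 and 0.32 in Nkx2.2 neurons, against 2.23, 0.34 and 2.27 in the wild type. Nkx2.2 replicate 3 and wild-type replicate 2 almost met (-2.04 ± 0.52, adjusted p = 0.0262). Wnt7b, a ligand that acts with Wnt7a on brain vessels, had -0.04, -0.12 and -0.04 in Nkx2.2 neurons, against 4.44, 0.00 and 4.53 in the wild type. The difference of -3.06 ± 0.86 (adjusted p = 0.0430) came from wild-type replicates 1 and 3, as did that of Wnt8b, which had 0.03, 0.00 and -0.02 in Nkx2.2 neurons (-1.91 ± 0.49, adjusted p = 0.0263).

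Fzd10 had 0.02, 0.00 and -0.04 in Nkx2.2 neurons, and again only wild-type replicates 1 and 3 lay far above them (-2.17 ± 0.52, adjusted p = 0.0198). Fzd10os, whose gene neighbours Fzd10 on the opposite strand, had -0.24, -0.43 and -0.26 in Nkx2.2 neurons, against 0.80, 0.12 and 1.58 in the wild type. Its groups did not overlap, and wild-type replicate 2 was again the lowest of its group (-1.15 ± 0.26, adjusted p = 0.0151).

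Sfrp2, a secreted protein with a Frizzled-like domain that binds Wnt, had -0.53, -1.96 and -2.40 in Nkx2.2 neurons, against 2.99, 0.49 and 3.61 in the wild type. All Nkx2.2 arrays lay below all wild-type arrays (-3.99 ± 0.73, adjusted p = 0.0035), a 15.9-fold difference. Dkk3 had 0.76, -1.34 and 0.63 in Nkx2.2 neurons, against -4.15, -4.74 and -3.30 in the wild type, with a wide gap between the groups (4.09 ± 0.86, adjusted p = 0.0091). Wif1 was not called here: replicates 1 and 2 of the Nkx2.2 neurons, at -1.20 and -1.50, lay beside the wild-type arrays, and replicate 3, at 3.49, lay with the Lmx1a arrays (1.86 ± 1.05, adjusted p = 0.387).

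Rspo1 had 0.03, 0.00 and -0.05 in Nkx2.2 neurons, against 5.87, 0.08 and 6.37 in the wild type. Rspo3 had -1.78, -2.27 and -1.56 in Nkx2.2 neurons, against 3.93, -0.88 and 3.71 in the wild type. The differences were -4.11 ± 1.06 (adjusted p = 0.0280) for Rspo1 and -4.12 ± 0.89 (adjusted p = 0.0106) for Rspo3, or 17.3-fold and 17.4-fold. In both genes wild-type replicates 1 and 3 were high and replicate 2 lay close to the Nkx2.2 arrays, still above them.

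Of the other pathway genes, 1 rose and 4 fell: Sostdc1, a secreted BMP and Wnt antagonist (2.44), the Groucho co-repressors Tle3 (-2.14) and Tle1 (-1.43), Draxin (-1.28) and the beta-catenin cofactor Bcl9 (-1.05). Of 5 floor plate genes 3 rose, with means of 0.16 to 1.30 on Nkx2.2 arrays and -2.91 to -1.40 on wild-type arrays, and 2 of 5 astroglial genes rose, with means of 0.18 to 1.46 against -1.44 to -0.97 in the wild type. The mesenchymal genes had a median difference of 1.18, with 1 of 8 called higher, and 1 of 8 progenitor genes fell. Their part in these differences was not tested. Sfrp2 was called without any single array (adjusted p of at most 0.0225), Dkk3 without any array except Nkx2.2 replicate 1 (0.0557), and Rspo3 without any array except wild-type replicates 1 and 3 (0.0616 and 0.0596). Calls for the other 7 genes were each lost in at least 3 of the 6 refits that left out 1 array. The count was 2, 4 and 7 without Nkx2.2 replicates 1, 2 and 3, beside 2.36%, 3.55% and 5.30% of all genes. It was 3, 13 and 2 without wild-type replicates 1, 2 and 3, beside 2.85%, 6.61% and 2.95% of all genes. When only these 6 arrays were fitted, limma called 0 of the 51 genes, with 13 at an unadjusted p under 0.05, beside 1.89% of all genes called. Within the arrays whose bioC signal was not low, the wild type has only replicate 3, so that fit has no replicate spread on the wild-type side.

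Several of these genes share 1 pattern, seen in the plot of 8 genes by array: high on replicates 1 and 3 of the FGF8 wild type and near the level of the other groups on replicate 2. The cycling-cell genes moved in the same way, with means of 1.87, -1.59 and 2.56 on the 3 wild-type arrays, and so did the neural progenitor genes, with 1.17, -0.65 and 1.48, while the pan-neuronal genes had 0.18, 0.68 and 0.16. Whether cells other than neurons contributed to the R-spondin and Lef1 signal on replicates 1 and 3 was not tested. Without replicate 2, the Lmx1a comparison called 15 genes, of which 11 were lower in Lmx1a neurons, against 4.17% of all genes called. Its added differences included -5.00 for Rspo1, -4.72 for Lef1, -4.53 for Rspo3, -4.34 for Wnt7b, -3.35 for Rspo2, -2.65 for Sfrp2 and -2.03 for Fzd7. With all 3 wild-type arrays these 7 genes were not called, so whether they pass the test depends on that array.

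**Figure D2:**
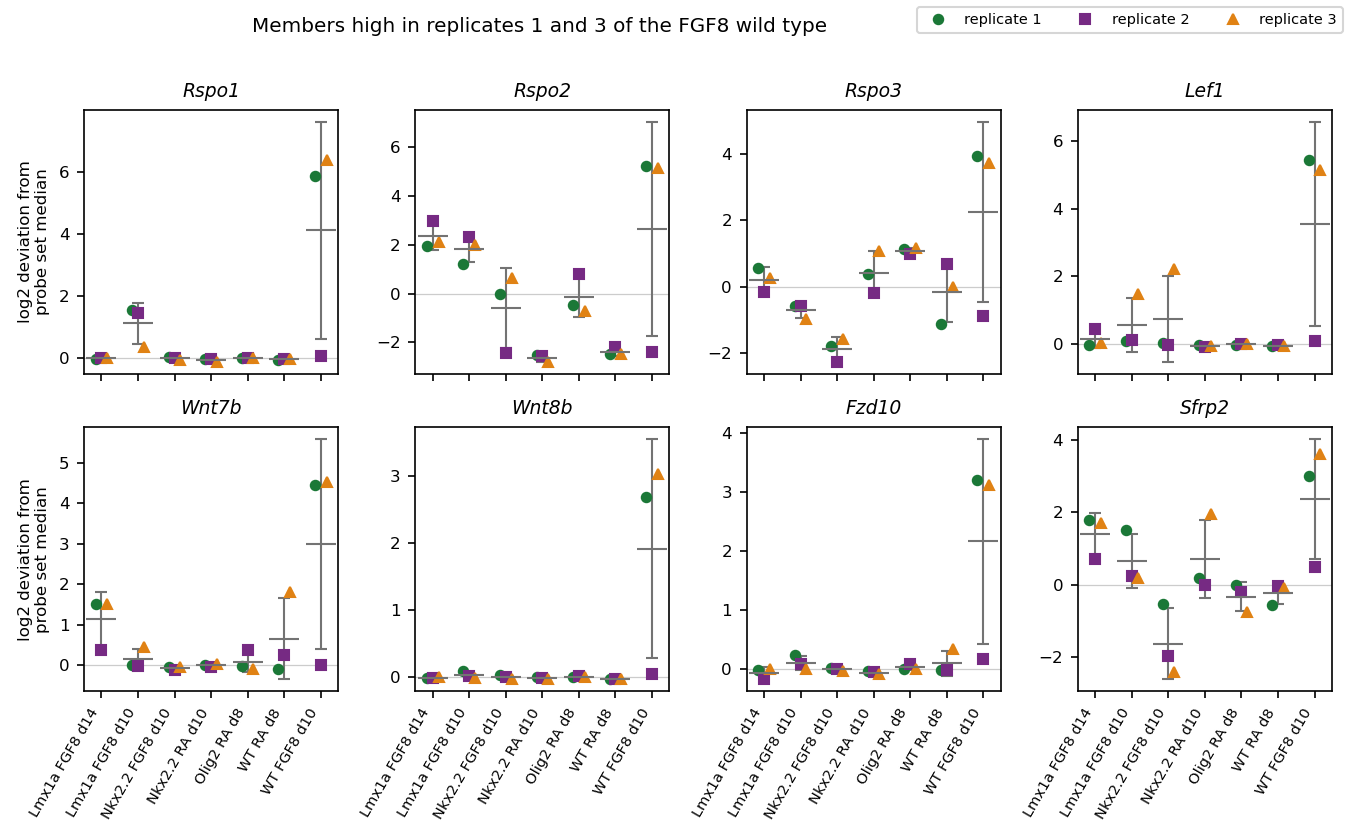
Log2 deviation from the probe set's median (vertical axis) for 8 genes in the 7 groups (horizontal axis), with each array as a point (circle replicate 1, square replicate 2, triangle replicate 3) and the bars showing mean ± SD (n = 3). In the FGF8 wild type the square lies far below the circle and the triangle in every panel, at 0.08 against 5.87 and 6.37 for Rspo1.

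Lef1, the HMG-box factor through which beta-catenin activates genes and itself a target, belongs to this pattern. It lay between -0.09 and 0.13 on 15 of the 18 arrays of the other groups, against 5.45, 0.08 and 5.13 in the FGF8 wild type. The exceptions were day-14 Lmx1a replicate 2 at 0.46, day-10 Lmx1a replicate 3 at 1.48 and Nkx2.2 FGF8 replicate 3 at 2.21. The promoters of 4 of the genes that were high together on replicates 1 and 3, and that of Wnt5b, are printed because TCF/LEF factors recognise the letters CTTTGAA or CTTTGAT. Wnt5b has 3 listed starts, and its printed window was picked because it holds CTTTGAT. The windows of its other starts hold neither CTTTGAA nor CTTTGAT. They come from the RefSeq table of GRCm38.p6, run 5′ to 3′ on the gene's strand over 300 bases around its start, most of them before it, and capitals mark CTTTGAT and its core CTTTG, or CAAAG where it lies on the other strand.
Lef1 (chr3:131110047-131110346, plus strand): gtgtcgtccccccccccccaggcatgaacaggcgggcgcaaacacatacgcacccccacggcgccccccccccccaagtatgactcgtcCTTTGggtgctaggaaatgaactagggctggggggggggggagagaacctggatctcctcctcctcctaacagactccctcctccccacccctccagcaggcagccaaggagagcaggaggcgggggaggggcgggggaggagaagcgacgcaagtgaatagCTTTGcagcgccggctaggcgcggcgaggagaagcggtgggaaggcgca
Rspo1 (chr4:124986180-124986479, plus strand): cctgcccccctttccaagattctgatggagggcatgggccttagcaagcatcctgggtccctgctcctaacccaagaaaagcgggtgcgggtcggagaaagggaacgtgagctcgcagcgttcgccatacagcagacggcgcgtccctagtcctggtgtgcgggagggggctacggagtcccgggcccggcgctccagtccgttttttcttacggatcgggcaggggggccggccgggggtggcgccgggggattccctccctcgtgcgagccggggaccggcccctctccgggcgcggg
Fzd10 (chr5:128600856-128601155, plus strand): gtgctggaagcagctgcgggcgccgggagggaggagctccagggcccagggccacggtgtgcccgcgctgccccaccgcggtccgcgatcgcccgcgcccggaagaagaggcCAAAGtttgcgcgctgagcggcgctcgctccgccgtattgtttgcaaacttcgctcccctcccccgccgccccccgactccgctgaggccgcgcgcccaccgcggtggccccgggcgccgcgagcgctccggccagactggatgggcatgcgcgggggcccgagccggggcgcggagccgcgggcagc
Wnt8b (chr19:44493222-44493521, plus strand): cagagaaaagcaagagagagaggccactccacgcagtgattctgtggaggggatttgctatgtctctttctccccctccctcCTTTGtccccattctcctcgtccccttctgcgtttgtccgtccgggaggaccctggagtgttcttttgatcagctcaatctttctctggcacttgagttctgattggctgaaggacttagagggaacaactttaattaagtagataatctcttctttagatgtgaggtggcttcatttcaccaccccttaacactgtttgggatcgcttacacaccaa
Wnt5b (chr6:119449337-119449636, minus strand): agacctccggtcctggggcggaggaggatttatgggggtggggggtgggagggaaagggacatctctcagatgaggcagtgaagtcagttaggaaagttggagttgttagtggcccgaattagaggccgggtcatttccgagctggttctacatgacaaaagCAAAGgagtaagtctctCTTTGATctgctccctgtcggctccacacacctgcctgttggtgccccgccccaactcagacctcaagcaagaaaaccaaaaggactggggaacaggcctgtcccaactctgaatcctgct
The table held 34 of the 51 genes, with 40 start sites. CTTTGAA or CTTTGAT was present on either strand in 3 of these 40 windows (7.5%), those of Wnt5b, Wnt11 and Dkk1, and in 8.65% of all 32851 windows. The core CTTTG, which lies inside the longer letters and was added after the first search, was in 20 of 40 (50%) and in 53.9% of all windows. The windows of Axin2, Nkd1 and all 4 listed starts of Lef1 hold neither of the longer forms. A match is a description of letters in a short window and shows no binding.

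The third comparison sets Olig2 motoneurons against the RA wild type of the same day. The receptors Ror2 and Lgr5, the ligand Wnt7a and Fzd10os were higher in Olig2 neurons and no gene of the 51 was lower. These 4 genes are 7.84% of the 51, and 10.4% of all genes were called (5.50% higher and 4.85% lower). With so few genes, these shares do not set the Wnt genes apart from genes in general. Beside the 0 that limma called lower, 2 had an unadjusted p under 0.05 in that direction. Their median difference was 0.05, beside 0.04 over all genes. Groups that do not overlap were common here, at 61.7% of all genes.

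Wnt7a had 2.11, 1.66 and 2.06 in Olig2 neurons, against 0.00, -0.26 and 0.46 in the RA wild type, with both groups tight (1.87 ± 0.52, adjusted p = 0.0210). Ror2, a receptor tyrosine kinase-like protein that binds Wnt5a, had 2.09, 2.51 and 2.05 in Olig2 neurons, against -1.39, 0.96 and 0.23 in the wild type. The wild-type arrays spread over more than 2 log2 units but stayed below the Olig2 arrays (2.28 ± 0.48, adjusted p = 0.00438). Lgr5, an R-spondin receptor and a target of beta-catenin in gut stem cells, had 2.38, 1.15 and 2.45 in Olig2 neurons, against -0.04, -0.05 and -0.07 in the wild type. All 3 Olig2 arrays were above the wild type, replicate 2 by the least (2.05 ± 0.39, adjusted p = 0.00224). Fzd10os had 1.98, 2.14 and 1.58 in Olig2 neurons, against 0.24, 0.12 and -0.02 in the wild type (1.78 ± 0.26, adjusted p = 0.000312). Fzd10 itself stayed flat, at -0.01, 0.08 and 0.00 in Olig2 neurons and -0.03, -0.02 and 0.34 in the wild type.

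Among other pathway genes 2 rose and 6 fell, including the planar polarity cadherin Celsr2 (-2.40), Mcc (1.75), the beta-catenin inhibitor Ctnnbip1 (-1.42), Daam1 (-1.40), Bcl9 (-1.40) and Tle1 (1.36). Of 8 mesenchymal genes 2 fell, with means of -0.69 to 0.08 on Olig2 arrays and -0.19 to 3.23 on wild-type arrays, and 2 of 5 floor plate genes, 1 of 5 astroglial genes and 2 of 8 pan-neuronal genes fell. Their part was not tested. Fzd10os, Lgr5 and Ror2 were called without any single array (adjusted p of at most 0.00271, 0.0142 and 0.0244), and the Wnt7a call was lost without Olig2 replicate 1 or 3 or wild-type replicate 1 or 2 (up to 0.0808). Within the arrays whose bioC signal was not low, where Olig2 neurons have only replicate 3, 2 genes were called, Fzd10os and Lgr5, against 2.69% of all genes.

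The fourth comparison sets day-10 Nkx2.2 neurons made with RA against the day-8 RA wild type, so 2 days of age are part of it. The inhibitor Dkk3, the receptors Fzd5 and Fzd6 and the ligands Wnt5b and Wnt4 were higher in Nkx2.2 neurons, and the receptors Ror1 and Fzd2 were lower. The 7 genes are 13.7% of the 51, and 18.0% of all genes were called (8.84% higher and 9.16% lower). Again these shares do not set the Wnt genes apart. The 51 genes had a median difference of -0.00 and all genes one of 0.01, and 43.1% of all genes had no overlap between the groups.

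Wnt5b, a close relative of Wnt5a, had 1.16, 1.61 and 3.25 in Nkx2.2 neurons, against -0.80, 0.18 and 0.00 in the RA wild type. The groups did not overlap, and Nkx2.2 replicate 3 was well above its group (2.22 ± 0.46, adjusted p = 0.00191). Wnt4, a ligand of kidney and gonad development, had 0.93, 1.04 and 3.48 in Nkx2.2 neurons, against -0.76, 0.67 and -0.08 in the wild type. Replicate 3 gave much of its difference of 1.88 ± 0.67 (adjusted p = 0.0480): without it the difference was 1.04 (adjusted p = 0.251).

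Fzd6 had 1.92, 2.19 and 3.10 in Nkx2.2 neurons, against -1.31, 0.00 and -0.23 in the wild type, with a wide gap (2.92 ± 0.47, adjusted p = 0.00025). Fzd5 had 0.97, 1.53 and 2.12 in Nkx2.2 neurons, against -1.42, -0.88 and -1.86 in the wild type, also without overlap (2.93 ± 0.83, adjusted p = 0.0149). Fzd2, a receptor for Wnt5a and other ligands, had -1.09, -1.36 and 0.00 in Nkx2.2 neurons, against 0.27, 1.30 and 0.81 in the wild type. The groups came close without meeting (-1.61 ± 0.45, adjusted p = 0.0130). Ror1, the relative of Ror2, had -0.34, -0.52 and 0.35 in Nkx2.2 neurons, against -0.37, 2.53 and 1.90 in the wild type. Its groups overlapped through wild-type replicate 1 (-1.52 ± 0.54, adjusted p = 0.0485).

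Dkk3 had 1.17, 1.21 and 2.10 in Nkx2.2 neurons, against -4.31, -1.09 and 0.35 in the wild type. The wild-type arrays disagreed by more than 4 log2 units, and the difference of 3.18 ± 0.86 (adjusted p = 0.0110) became 1.87 at its lowest when 1 array was left out.

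Among other pathway genes 3 rose and 14 fell in Nkx2.2 neurons. The widest were Tle3 (-3.08), Wls, the carrier that takes Wnt proteins to the cell surface (2.35), Celsr2 (-2.32), Bcl9 (-2.21), the kinase Csnk1e (-2.11) and Daam1 (-2.10). All 5 floor plate genes rose, with means of 1.08 to 2.78 on Nkx2.2 arrays and -2.57 to -0.30 on wild-type arrays, 2 of 5 astroglial genes rose, and 3 of 8 pan-neuronal genes fell, with means of -1.08 to -0.58 on Nkx2.2 arrays and 0.22 to 0.80 on wild-type arrays. Their part was not tested. Dkk3, Fzd6 and Wnt5b were called without any single array (adjusted p of at most 0.041, 0.00185 and 0.0128), Fzd5 was lost without Nkx2.2 replicate 3 or wild-type replicate 3 (up to 0.0522), Fzd2 without Nkx2.2 replicate 1 or 2 or wild-type replicate 2 (up to 0.0656), Wnt4 also without wild-type replicate 1 or 3, and Ror1 without Nkx2.2 replicate 1 or 2 or wild-type replicate 2 or 3 (up to 0.253). The count was 4 without wild-type replicate 3 (18.3% of all genes), and 2 when only these 6 arrays were fitted (12.7% of all genes).

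**Figure D3:**
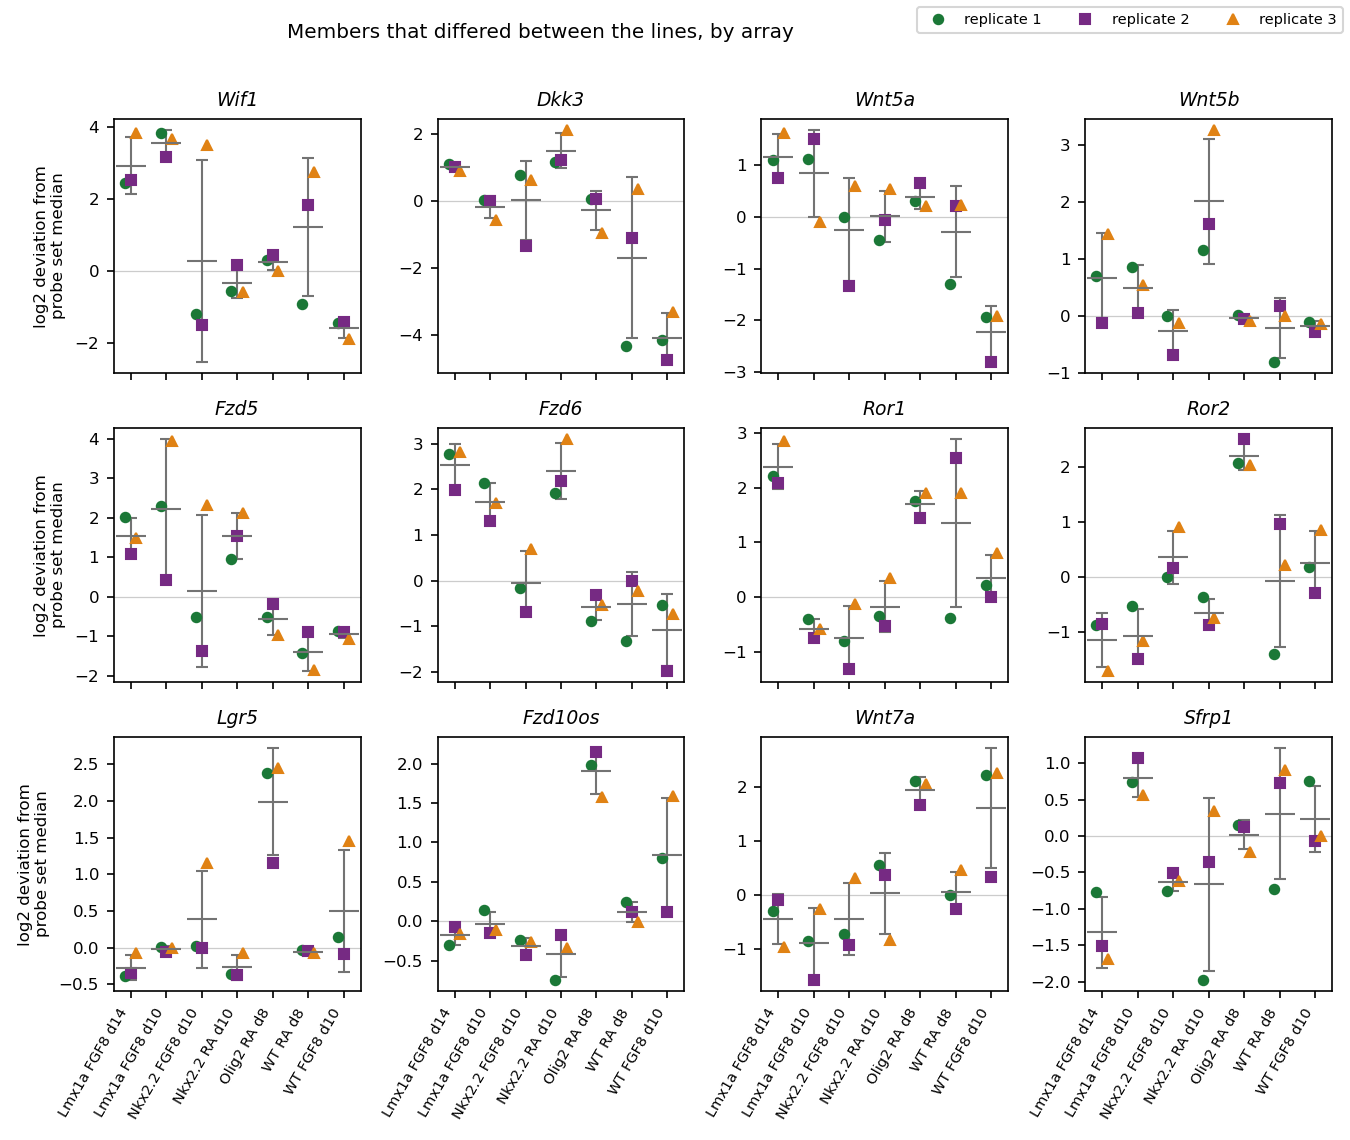
Log2 deviation from the probe set's median (vertical axis) for 12 genes in the 7 groups (horizontal axis), with each array as a point (circle replicate 1, square replicate 2, triangle replicate 3) and the bars showing mean ± SD (n = 3). Wif1 is between 2.42 and 3.83 on all 6 Lmx1a arrays, Fzd6 is at 1.31 or above on the 6 Lmx1a arrays and the 3 RA Nkx2.2 arrays, and Ror2 is at 2.05 or above on the 3 Olig2 arrays only.

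Between day 14 and day 10 of the Lmx1a line, the receptor Ror1 rose and the inhibitor Sfrp1 fell, and the rest of the 51 genes did not pass the test. These 2 genes are 3.92% of the 51, beside 4.24% of all genes called (2.96% higher and 1.28% lower). Medians over the 51 genes and over all genes were -0.04 and -0.05, and the days did not overlap for 20.9% of all genes. Ror1 had 2.21, 2.09 and 2.85 on day 14, against -0.40, -0.74 and -0.58 on day 10. The days were more than 2 log2 units apart on every array (2.96 ± 0.54, adjusted p = 0.00395), a 7.78-fold difference. Sfrp1, a secreted Frizzled-related protein, had -0.77, -1.51 and -1.69 on day 14, against 0.74, 1.08 and 0.57 on day 10. Here too the days did not overlap (-2.12 ± 0.50, adjusted p = 0.0178). Wif1 stayed at 2.42, 2.50 and 3.83 on day 14, beside 3.83, 3.16 and 3.66 on day 10, and Wnt5a at 1.11, 0.76 and 1.63, beside 1.12, 1.51 and -0.09.

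Ror1 was called without any single array (adjusted p of at most 0.0175). Sfrp1 was lost without day-10 replicate 2 or day-14 replicate 2 or 3 (adjusted p = 0.0586, 0.0645 and 0.0585). In the first and second case 1 gene was left, beside 3.81% and 3.08% of all genes called. Leaving out day-14 replicate 3 brought in Fzd3, a Frizzled of axon guidance, which had 2.82, 2.98 and -0.27 on day 14 and 0.11, -0.24 and -0.02 on day 10 (1.89 ± 0.60, adjusted p = 0.0758 with all arrays, and a difference of 2.95 without that one). The cycling-cell means were -1.80 to -1.12 on day 14 and 0.53 to 1.10 on day 10, with 1 of 5 genes called lower. Of 8 mesenchymal genes 1 fell, and 1 of 5 astroglial and 1 of 8 progenitor genes rose, and the part of these lists was not tested. Of the other pathway genes, Vangl1 (1.74) and Draxin (1.29) rose and Tle1 (-1.86) fell. Within the arrays of low bioC signal, which leave out day-14 replicate 3, 5 genes were called, beside 2.82% of all genes. Added were Dkk3 (1.24), Fzd3 (2.95) and Wif1 (-1.09).

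Nkx2.2 neurons of the same day made with FGF8 or with RA differed in Fzd6, Wnt5b and Nkd1, all lower with FGF8. The 3 genes are 5.88% of the 51, beside 4.31% of all genes called, 2.66% lower and 1.65% higher. Of the 51 genes, limma called 0 higher with FGF8, and 2 had an unadjusted p under 0.05 in that direction. Medians over the 51 genes and over all genes were 0.02 and 0.03, and 22.7% of all genes had no overlap. Fzd6 had -0.16, -0.69 and 0.69 with FGF8, against 1.92, 2.19 and 3.10 with RA (-2.46 ± 0.47, adjusted p = 0.00478). Wnt5b had 0.00, -0.69 and -0.12 with FGF8, against 1.16, 1.61 and 3.25 with RA (-2.28 ± 0.46, adjusted p = 0.00744). Both genes were higher on every RA array than on any FGF8 array. Nkd1, a Dishevelled-binding protein induced by Wnt that dampens the signal, had -0.73, -0.85 and -0.86 with FGF8, against 0.13, 0.95 and 1.65 with RA. The FGF8 arrays were tight and below all RA arrays (-1.72 ± 0.47, adjusted p = 0.0395). Celsr3 rose (1.08) and Vangl1 fell (-2.09) among other pathway genes. Of 8 pan-neuronal genes 2 rose with FGF8, with a median difference of 0.50 and 8 of 8 above 0, 2 of 7 roof plate and choroid plexus genes rose and 1 of 5 astroglial genes fell, and their part was not tested. Fzd6 and Wnt5b were called without any single array, and Nkd1 only without Nkx2.2 RA replicate 1 (adjusted p up to 0.135 otherwise). When only these 6 arrays were fitted, limma called 0 of the 51 genes, with 7 at an unadjusted p under 0.05.

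Dopaminergic and serotonergic neurons of day 10 made with the same SHH and FGF8 differed in 1 gene of the 51 (1.96%), while 5.07% of all genes were called (2.2% higher and 2.87% lower). Of the 51, limma called 0 lower, with 2 at an unadjusted p under 0.05 in that direction. The median difference was 0.07 over the 51 genes and 0.03 over all genes, and 20.3% of all genes had no overlap. Fzd6 had 2.14, 1.31 and 1.70 in Lmx1a neurons, against -0.16, -0.69 and 0.69 in Nkx2.2 neurons, with no overlap (1.77 ± 0.47, adjusted p = 0.0287). Wif1 had 3.83, 3.16 and 3.66 in Lmx1a neurons, against -1.20, -1.50 and 3.49 in Nkx2.2 neurons. Because Nkx2.2 replicate 3 lay within the Lmx1a values, the difference of 3.29 ± 1.05 was not called (adjusted p = 0.067). Without that array it was 4.90 (adjusted p = 0.0011), 1 of 4 genes then called, beside 6.01% of all genes. The same array was high for Fzd5, at 2.31 beside -0.52 and -1.37, and for Lef1 and Dkk2. The Fzd6 call was lost without Lmx1a replicate 1 or 3 or Nkx2.2 replicate 1 or 2. There limma called 0 genes, with 11, 9, 11 and 8 at an unadjusted p under 0.05, beside 6.60%, 3.95%, 2.57% and 2.89% of all genes called. Without Lmx1a replicate 2, 3 genes were called (3.64% of all genes). The Fzd6 call was also lost with the bioC split as a block (0 genes, 7 at an unadjusted p under 0.05, beside 2.69% of all genes called). Of the other pathway genes Dvl3 (2.16), Celsr2 (1.56) and Vangl2 (1.35) rose and Prickle1 (-1.01) fell. The mesenchymal genes had a median difference of -2.21, with 2 of 8 lower and 1 higher, and 2 of 5 astroglial genes and 1 of 8 progenitor genes fell. Of the floor plate genes 1 of 5 rose (median 1.85) and of the roof plate and choroid plexus genes 1 of 7 (median 1.69). The part of these lists was not tested.

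The comparison of the RA lines, day-10 Nkx2.2 neurons against day-8 Olig2 motoneurons, gave 9 genes (17.6% of the 51, beside 13.1% of all genes, 6.19% higher and 6.94% lower). Fzd6, Wnt5b and Nkd1 were higher in Nkx2.2 neurons, and Ror2, Fzd10os, Lgr5, Wnt7a, Ror1 and Fzd2 were lower. The median difference was -0.05 over the 51 genes and -0.03 over all genes, and 50.5% of all genes had no overlap. The age of the groups differs by 2 days, and the Olig2 arrays, like the Nkx2.2 arrays, also enter the comparisons with the RA wild type.

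Wnt5b had 1.16, 1.61 and 3.25 in Nkx2.2 neurons, against 0.02, -0.05 and -0.09 in Olig2 neurons, where it was level (2.05 ± 0.46, adjusted p = 0.00464). Wnt7a had 0.56, 0.37 and -0.82 in Nkx2.2 neurons, against 2.11, 1.66 and 2.06 in Olig2 neurons (-1.91 ± 0.52, adjusted p = 0.0153). Wnt5b was thus higher and Wnt7a lower in Nkx2.2 neurons, each without overlap. Fzd6 had 1.92, 2.19 and 3.10 in Nkx2.2 neurons, against -0.89, -0.30 and -0.52 in Olig2 neurons (2.97 ± 0.47, adjusted p = 0.000286). Fzd2 had -1.09, -1.36 and 0.00 in Nkx2.2 neurons, against 1.10, 1.07 and 0.70 in Olig2 neurons (-1.77 ± 0.45, adjusted p = 0.00975). These 2 Frizzled receptors also moved in opposite directions without overlap.

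The 2 Ror receptors were both lower in Nkx2.2 neurons. Ror2 had -0.36, -0.86 and -0.75 in them, against 2.09, 2.51 and 2.05 in Olig2 neurons (-2.87 ± 0.48, adjusted p = 0.00052). Ror1 had -0.34, -0.52 and 0.35 in Nkx2.2 neurons, against 1.76, 1.45 and 1.90 in Olig2 neurons (-1.87 ± 0.54, adjusted p = 0.0219). Both were clear of overlap. Lgr5 had -0.36, -0.38 and -0.07 in Nkx2.2 neurons, against 2.38, 1.15 and 2.45 in Olig2 neurons (-2.26 ± 0.39, adjusted p = 0.000631). Fzd10os had -0.74, -0.17 and -0.34 in Nkx2.2 neurons, against 1.98, 2.14 and 1.58 in Olig2 neurons (-2.32 ± 0.26, adjusted p = 1.52e-05). It had the smallest adjusted p of the 51 genes in this comparison. Nkd1 had 0.13, 0.95 and 1.65 in Nkx2.2 neurons, against -0.87, -1.22 and -1.23 in Olig2 neurons (2.02 ± 0.47, adjusted p = 0.00604), again without overlap.

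Of the other pathway genes 6 rose and 10 fell, the widest being Wls (3.49), Tle3 (-3.07), Celsr1 (3.02), Tle2 (2.47), the glypican Gpc3 (-2.25) and Kremen1, a Dkk1 receptor (2.21). Floor plate genes rose in 4 of 5 cases, with means of 1.08 to 2.78 on Nkx2.2 arrays and -3.05 to -2.31 on Olig2 arrays, and 2 of 5 astroglial and 3 of 8 mesenchymal genes rose as well, while 2 of 8 pan-neuronal genes fell. Their part was not tested. Fzd10os, Fzd6, Lgr5, Nkd1, Ror2 and Wnt5b were called without any single array, Fzd2 without any except Nkx2.2 replicate 2 (adjusted p = 0.0514), Wnt7a without any except Nkx2.2 replicate 3 and Olig2 replicate 1 (0.0704 and 0.0542), and Ror1 was lost without replicate 1 or 2 of the Nkx2.2 neurons or replicate 1 or 3 of the Olig2 neurons (up to 0.0812). Within the arrays whose bioC signal was not low, where Olig2 neurons have only replicate 3, 2 genes were called, Fzd10os and Lgr5, beside 5.01% of all genes.

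The wild-type neurons of the 2 treatments, day 8 in RA and day 10 in FGF8, differed in 8 genes (15.7% of the 51, beside 7.40% of all genes). Wnt5a and Fzd4 were higher in RA (4.29% of all genes called higher), and Rspo1, Rspo2, Lef1, Sfrp2, Fzd10 and Wnt8b were lower (3.11% called lower). All 6 lower genes belong to the pattern on replicates 1 and 3 of the FGF8 wild type, and treatment and day cannot be told apart. The median difference was -0.07 over the 51 genes and -0.05 over all genes, and 36.0% of all genes had no overlap.

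Wnt5a had -1.30, 0.21 and 0.24 with RA, against -1.94, -2.81 and -1.92 with FGF8, without overlap (1.94 ± 0.53, adjusted p = 0.0281). Fzd4, known as the receptor for Norrin in retinal vessels, had 0.00, 2.15 and 0.83 with RA, against -0.56, -0.54 and -0.15 with FGF8 (1.41 ± 0.42, adjusted p = 0.0390). Rspo2 had -2.48, -2.18 and -2.47 with RA, against 5.23, -2.39 and 5.14 with FGF8. Replicate 2 of the FGF8 wild type lay among the RA arrays while the other replicates were more than 7 log2 units above them (-5.04 ± 1.43, adjusted p = 0.0325). Rspo1 had -0.05, -0.03 and -0.02 with RA, against 5.87, 0.08 and 6.37 with FGF8 (-4.14 ± 1.06, adjusted p = 0.0196). Lef1 had -0.04, -0.03 and -0.04 with RA, against 5.45, 0.08 and 5.13 with FGF8 (-3.59 ± 1.00, adjusted p = 0.0299). In both genes FGF8 replicate 2 lay only slightly above the RA arrays. Sfrp2 had -0.57, -0.03 and -0.09 with RA, against 2.99, 0.49 and 3.61 with FGF8 (-2.59 ± 0.73, adjusted p = 0.0310). The remaining differences were -2.07 ± 0.52 for Fzd10 (adjusted p = 0.0184) and -1.95 ± 0.49 for Wnt8b (adjusted p = 0.0175), and Fzd10 overlapped between the groups.

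Of the other pathway genes Csnk1a1 (1.29) and Daam1 (1.22) rose and Tle1 (-1.71) and Ctnnb1, which encodes beta-catenin (-1.30), fell in RA. Mesenchymal means were -0.19, 3.23 and 2.59 with RA and -0.75, -1.63 and 0.20 with FGF8, and 2 of 8 genes rose. Of 5 astroglial genes 2 rose and of 5 floor plate genes 1 rose, 1 of 8 progenitor genes fell, and the part of these lists was not tested. Each of the 8 calls was lost without at least 1 single array. Without FGF8 replicate 1 or 3 or RA replicate 2, limma called 0 genes (13, 15 and 13 at an unadjusted p under 0.05). There 4.40%, 4.41% and 4.43% of all genes were called. The count was 11 without FGF8 replicate 2, 5 without RA replicate 1 and 3 without RA replicate 3 (8.96%, 5.03% and 8.21% of all genes). RA replicate 1 lay 2 or more log2 units below both others for Dkk3, Ror1 and Wif1, and without it these were among the genes called, with differences of 3.69, 1.87 and 3.89. When only these 6 arrays were fitted, 0 genes were called, with 8 at an unadjusted p under 0.05, and the bioC split as a block left 3.

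Finally, the Nkx2.2 line's difference from its wild type was itself compared between FGF8 and RA. This difference of differences was called for Sfrp2 and Rspo3, 2 of 51 genes (3.92%), beside 4.38% of all genes (2.60% higher and 1.78% lower). Of the 51, limma called 0 higher, with 3 at an unadjusted p under 0.05 in that direction. The median was -0.03 over the 51 genes and -0.02 over all genes. Sfrp2 was lower in Nkx2.2 neurons than in the wild type under FGF8, by -3.99, and differed by 0.94 under RA, where it had 0.19, 0.00 and 1.94 in Nkx2.2 neurons, against -0.57, -0.03 and -0.09 in the wild type. The gap between the 2 effects was -4.93 ± 1.03 (adjusted p = 0.0133). Rspo3 had 0.39, -0.20 and 1.08 in RA Nkx2.2 neurons, against -1.12, 0.68 and 0.00 in the RA wild type, and its gap was -4.69 ± 1.26 (adjusted p = 0.0422). Sfrp2 was called without any of the 12 arrays (adjusted p of at most 0.0414), while Rspo3 was called only without FGF8 wild-type replicate 2 or RA wild-type replicate 3 (up to 0.116 otherwise). For the same contrast, 2 of 8 pan-neuronal genes were called higher (median 0.79) and 1 of 8 mesenchymal genes (median 1.99, 8 of 8 above 0), while the cycling-cell genes had a median of -1.38 with none above 0 and the progenitor genes one of -0.81. Their part was not tested. Leaving out FGF8 wild-type replicate 2 brought the count to 11 genes, beside 8.33% of all genes. A fit of only these 12 arrays brought it to 0, with 6 at an unadjusted p under 0.05, beside 3.62% of all genes called.

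**Figure D4:**
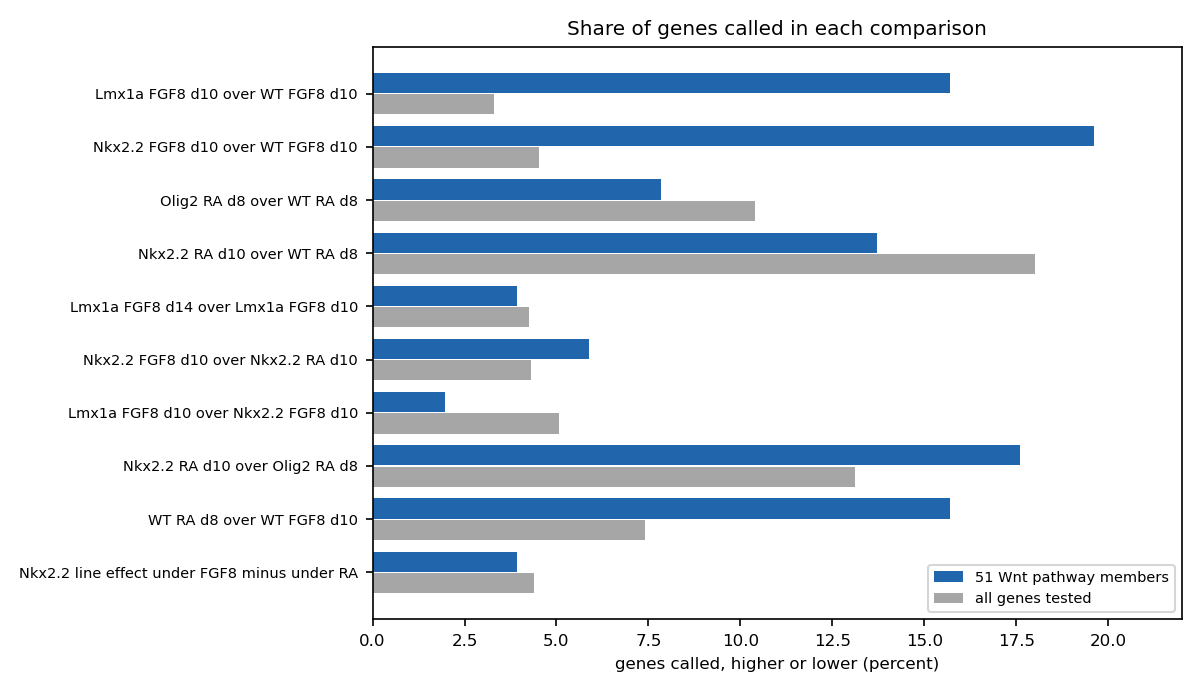
Percent of the 51 Wnt genes and percent of all 18193 genes called (horizontal axis, from 0) in each of the 9 comparisons between groups and in the difference of differences, with the upper bar for the Wnt genes. The Wnt share is larger where the Lmx1a and Nkx2.2 lines are set against the FGF8 wild type (15.7% beside 3.31%, and 19.6% beside 4.53%). It is also larger between the wild types (15.7% beside 7.40%). For the Olig2 and Nkx2.2 lines against the RA wild type, the shares lie closer together (7.84% beside 10.4%, and 13.7% beside 18.0%). No difference between shares was tested.

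Axin2, the target most widely induced by beta-catenin signalling, was called in none of the comparisons, although it varied by 1.58 between group means. It had 0.07, -0.26 and 0.45 in day-14 Lmx1a neurons, -1.18, 0.10 and 0.24 in day-10 Lmx1a neurons and -0.78, -0.68 and -1.08 in FGF8 Nkx2.2 neurons. RA Nkx2.2 neurons had -0.87, -0.20 and 0.44, Olig2 neurons -0.17, -0.11 and 0.00, the RA wild type 0.31, 1.13 and 0.78 and the FGF8 wild type 0.30, -0.15 and 0.34. It was thus lowest in FGF8 Nkx2.2 neurons and highest in the RA wild type, and its difference in FGF8 Nkx2.2 neurons against the FGF8 wild type was -1.01 (adjusted p = 0.118). Nkd1 was highest in day-14 Lmx1a neurons, at 1.35, 0.93 and 0.96, and lowest in Olig2 neurons, at -0.87, -1.22 and -1.23. Lef1 had its high values in the FGF8 wild type, so the 3 targets did not share a highest group.

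Across the 7 groups, the 24 called genes had their highest mean in the FGF8 wild type in 8 cases, in Olig2 neurons in 5, in day-14 Lmx1a neurons in 4, in day-10 Lmx1a neurons in 3, in RA Nkx2.2 neurons in 3, in the RA wild type in 1 and in FGF8 Nkx2.2 neurons in none. The groups enter unequal numbers of the comparisons that selected these genes, so the tally partly follows from that selection. It was not set beside the same tally for all called genes. The genes called in 3 or more comparisons were 9: Dkk3, Fzd10, Fzd10os, Fzd6, Ror1, Wnt5a, Wnt5b, Wnt7a and Wnt8b. Fzd6 was called most often, higher in 4 comparisons and lower in 1. Of 54 calls, the 2 of the difference of differences included, 20 held without any single array. In every alternative run, 6 held: Fzd10os and Lgr5 in Olig2 neurons against the RA wild type and in RA Nkx2.2 against Olig2 neurons, Fzd6 in RA Nkx2.2 neurons against the RA wild type, and Ror1 between the days of the Lmx1a line.

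Most of these genes are covered by several probe sets, and the one with the largest SD over the 21 arrays was used. Of the 52 calls between groups, 47 concern genes with more than 1 probe set. Another probe set was called in the same direction for 13 of them, none was called in the opposite direction, and 34 had no second call. Dkk3 was called by its other probe set too, at 3.81 in Lmx1a neurons and 3.40 in FGF8 Nkx2.2 neurons against the FGF8 wild type. Sfrp1 fell by 1.90 between the days by a second probe set, beside -2.12. By contrast, the other probe sets of Fzd6 differed by 0.02 and 0.55 in Lmx1a neurons against the FGF8 wild type, where the further one of Fzd5 differed by 0.03 and that of Fzd10 by 0.03. Those of Ror1 differed by -0.02 and 0.17 between the days of the Lmx1a line, and the further ones of Lgr5 and Ror2 by 0.05 and 0.20 in Olig2 neurons against the RA wild type. The second probe set of Rspo3 differed by -0.05 in FGF8 Nkx2.2 neurons, and that of Rspo2 by -0.03 between the wild types. The other probe sets of Wnt7a differed by -0.02 and 0.03 in Lmx1a neurons against the FGF8 wild type. Those of Nkd1 differed by -0.30 to 0.02 in Nkx2.2 neurons between FGF8 and RA. The calls for these receptors and R-spondins, and for Wnt7a and Nkd1, rest on 1 probe set each. Wif1, Rspo1 and Sfrp2 have a single probe set.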

How the data were processed

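RNA from 21 samples of stem cell derived neurons, 3 in each of 7 groups taken from the labels, was measured on Affymetrix mouse arrays, 1 array per sample. Per the submitters' processing notes, the deposited log2 values came from GCRMA (version not given in the sources used here). They were also centred before deposit: no probe set has more than 13 positive or 13 negative values, and 79.2% hold an exact 0, as centring on the median of 27 arrays gives. Of those, 6 arrays are not used here. Centring removes levels and keeps differences between arrays, so no filter on signal was possible.

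Of 45101 probe sets, 64 controls were set aside; 34945 of the others name 1 gene, 932 several and 9160 none here. Each of the 18193 genes was represented by whichever of its probe sets had the highest SD across the 21 arrays, which does not use the groups but favours variable probe sets. All 51 symbols match RefSeq. Group means were fitted with limma 3.58.1 in R 4.3.3 to all 21 arrays (14 residual and 1.11 prior degrees of freedom), giving 9 comparisons and 1 difference of differences, with Benjamini-Hochberg adjustment over all genes. Where only the arrays compared were fitted, 4 or 8 residual degrees of freedom remained. P-values measure the spread between replicates labelled as biological, taken as 1 spread per gene over all 7 groups. Group spreads were unequal: the SD of Rspo1 was 3.50 in the FGF8 wild type and 0.007 to 0.65 in the other groups. For such genes the shared spread is smaller than that of the FGF8 wild type, and the SE of comparisons with that group is too small.

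On simulated data for Olig2 neurons against the RA wild type (18193 genes), the same steps recovered 44.7% of changes of 1.5 log2 units, 66% of 2 and 91.3% of 3. The simulated noise was normal, with the same SD in all groups, and changes were set only in genes whose SD lay above the median. These rates therefore do not cover genes whose spread differs between groups. The number of arrays limits the precision. Replicate numbers showed no pairing on average. The mean correlation of deviations was 0.00603 for 63 pairs with the same number (-0.35 to 0.385), and -0.00337 for 126 with different numbers. Such means cannot exclude shared processing in some groups. In day-14 Lmx1a, Olig2 and FGF8 wild type, replicates 1 and 2 but not 3 had low bioC signal. The bioC spike-in controls split the arrays into 9 (-2.75 to -1.27) and 12 (-0.149 to 0.653).

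The genes, their roles, the 56 other pathway genes (54 tested) and the marker lists were chosen with earlier results of these data known. All 51 are named: up to 12 called per comparison with their test, values by array for the ligands, R-spondins and inhibitors called and for those called in 3 or more comparisons, the uncalled by range, and up to 6 other pathway genes per comparison. Values by array of Wnt8b, Lef1, Lgr5, Ror2, Fzd2, Fzd3, Fzd4, Fzd5, Nkd1 and Axin2 were added after they were seen. Alternatives were a replicate block, the bioC split as a block or within 1 part, a fit to just the 6 or 12 arrays of a comparison, averaging a gene's probe sets, dropping probe sets with a name suffix, subtracting each array's median, trended and robust moderation, a range of 2 or more, each array left out, and 3 arrays left out together, the last added after seeing the data. Promoters come from RefSeq tables of GRCm38.p6.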

Additional observations from a re-analysis of the deposited data

Results flagged for a closer look

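Both genes whose difference between Nkx2.2 neurons and the wild type itself differed between FGF8 and RA are given here, since the test of that difference passed the threshold in limma. For Sfrp2 the difference of differences was -4.93 (adjusted p = 0.0133). For Rspo3 it was -4.69 (adjusted p = 0.0422). The RA wild type was sampled on day 8 and the other 3 groups on day 10, so day is part of both values and cannot be told apart from the treatment. Replicate 2 of the FGF8 wild type was the lowest of its group for both genes, at 0.49 for Sfrp2 and -0.88 for Rspo3.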

How the results depend on the processing

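No call changed direction in any alternative run. With replicate numbers as a block, though no label says that they pair samples, 52 of 54 calls held. The counts of called Wnt genes were then 8, 11, 4, 6, 2, 3, 1, 10, 7 and 3 in the order of the report. The bioC split as a block kept 41 of 54 calls, with 5 genes for day-10 Lmx1a against the FGF8 wild type, 3 between the wild types and, by limma, 0 for Lmx1a against Nkx2.2 neurons (7 at an unadjusted p under 0.05). In these 3 comparisons 2.95%, 4.49% and 2.69% of all genes were called. Fitting only the arrays compared kept 17 of 54: it called 2 genes for Lmx1a against the FGF8 wild type, 2 for RA Nkx2.2 neurons against the RA wild type, and 0 for FGF8 Nkx2.2 neurons against the wild type, for Nkx2.2 neurons in FGF8 against RA, between the wild types and for the difference of differences (13, 7, 8 and 6 at an unadjusted p under 0.05). That fit has fewer residual degrees of freedom, takes the spread from only the groups compared, and called fewer of all genes too. Within 1 part of the split, 22 of 41 calls held, with 4 genes for Lmx1a against the FGF8 wild type, 2 for Olig2 neurons, 5 for day 14 against day 10 and 2 for Nkx2.2 against Olig2 neurons. Nkx2.2 RA and its wild type lie wholly in 1 part.

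Averaging a gene's probe sets kept 40 of 54 calls. The 14 lost include all 4 of Wnt7a (-0.83 in Lmx1a neurons against the FGF8 wild type), Fzd6 for Lmx1a against Nkx2.2 neurons (0.79) and for Nkx2.2 neurons in FGF8 against RA (-0.99), and both Nkd1 calls. Probe sets without a name suffix gave 4 genes for RA Nkx2.2 neurons against the RA wild type, and centring arrays on their median 1 for the difference of differences. Testing only genes with a range of 2 or more left 6489 genes, 31 of them Wnt genes. It gave 5 for Lmx1a against Nkx2.2 neurons and 13 between the wild types. Of all genes in this smaller set, 15.9% and 23.5% were called in these comparisons, so the higher counts do not by themselves set the Wnt genes apart. Leaving out 3 arrays together gave 5 for Nkx2.2 neurons in FGF8 against RA, 2 for Lmx1a against Nkx2.2 neurons and 9 for the difference of differences. There 5.15%, 4.61% and 8.95% of all genes were called. With 1 array left out, counts ranged from 3 to 15, 2 to 13, 3 to 5, 4 to 10, 1 to 2, 2 to 3, 0 to 4, 7 to 10, 0 to 11 and 1 to 11, in the order of the report. The share of all genes called moved too, from 2.36% to 6.61% in the second comparison and from 2.22% to 8.33% in the difference of differences. The causes of these shifts were not tested. Signal over background is unknown in centred values.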

Other observations

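Wnt9a, a ligand called in no comparison, separated the groups more than most uncalled genes. It had 1.59, 1.64 and 2.33 in day-14 Lmx1a neurons and 2.33, 0.26 and 2.69 in day-10 Lmx1a neurons. In the RA groups it lay lower, at -0.23, -0.35 and 0.73 in Nkx2.2 neurons, -0.27, -0.08 and -0.26 in Olig2 neurons and -0.32, -0.32 and -0.37 in the wild type. The FGF8 wild type had 1.35, -0.39 and 2.07, with replicate 2 at the level of the RA arrays. Fzd8, a Frizzled of the forebrain and kidney, had -1.90, -2.20 and -0.16 in FGF8 Nkx2.2 neurons, its lowest group, and 0.90, 1.62 and 0.68 in Olig2 neurons.

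Rspo2 varied most of all 51 genes between single arrays, over 8.04 log2 units. It had 1.96, 2.99 and 2.09 in day-14 Lmx1a neurons, 1.23, 2.31 and 1.99 in day-10 Lmx1a neurons, 0.00, -2.44 and 0.66 in FGF8 Nkx2.2 neurons, -2.52, -2.53 and -2.81 in RA Nkx2.2 neurons and -0.45, 0.81 and -0.73 in Olig2 neurons. All 6 Lmx1a arrays thus lay above all RA arrays. That span was not among the comparisons, and its second probe set differed by -0.03 between the wild types.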
